A study of Mus musculus with 12 samples.

Results

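The 10 Notch pathway genes described here were followed through mouse medulloblastoma (MB) and cerebellum: the ligands Dll1, Dll3 and Jag1, the receptors Notch1, Notch2 and Notch3, the DNA-binding subunit Rbpj, and the HES-family targets Hes1, Hes5 and Hey1. They were picked by gene symbol, each symbol matched 1 row, and they make up 10 of the 24091 genes measured. RNA sequencing was done on 12 samples in 4 groups of 3. Tumors came from Brca2-mut;Trp53-mut mice GB344, GB359 and GB370, and the adjacent cerebellum of the same 3 mice formed the second group. Control cerebella came from Brca2-mut;Trp53-WT mice GB361, GB508 and GB512 and from Brca2-WT;Trp53-mut mice GB517, GB519 and GB520, all at P90. The paper describes the normal cerebella as age-matched to the tumors. Tumors were collected at humane endpoints, and the age of each tumor-bearing mouse is not given in the sources used here. The labels name no treatment.

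In this model Brca2 exons 3 and 4 are deleted in the central nervous system by Cre under the human GFAP promoter, while Trp53 is knocked out in the whole animal. The adjacent cerebellum therefore comes from mice with both alterations, and the share of its cells with the Brca2 deletion was not measured here. No wild-type cerebellum was among the 12 samples. Whether the Brca2-WT;Trp53-mut mice carried the Cre transgene is not given in the sources used here. Expression is given in TPM, which corrects each gene for its transcript length and each library for its size, so levels can be set side by side between genes. TPM keeps no read number, so the depth of each library is unknown. Each library summed to between 999793 and 999876 TPM, and between 15088 and 15803 genes reached 1 TPM. Brca2 ranged from 8.22 to 14.6 TPM in tumors, 4.52 to 6.98 in adjacent cerebella and 3.24 to 4.40 in controls. Trp53 ranged from 124 to 130.5 TPM in tumors, 66.1 to 85.0 in adjacent cerebella, 33.1 to 37.2 in Brca2-mut;Trp53-WT controls and 47.1 to 49.4 in Brca2-WT;Trp53-mut controls. Transcripts without the deleted exons still count toward a gene's TPM, which is why these levels check no genotype and groups are named as labelled.

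Notch signaling passes between touching cells. A ligand of the Delta or Jagged type on one cell binds a Notch receptor on its neighbor, proteases then cut the receptor, and its intracellular part enters the nucleus, where it joins RBPJ and turns on repressor genes such as Hes1, Hes5 and Hey1. In the developing cerebellum the pathway is known for keeping granule cell progenitors (GCPs) and radial glia undifferentiated, and in the adult cerebellum it is known from Bergmann glia and blood vessels. DLL3 is an unusual ligand that acts inside the producing cell and is known for inhibiting Notch signaling.

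The tissue labels were checked against cell type markers. GCP markers summed to 1777 to 3404 TPM over 10 genes in tumors and to 640 to 870 TPM in controls. Most of the control sum was Zic1, at 475 to 666 TPM in controls and 454 to 671 TPM in tumors. Cntn2 also overlapped between the groups, at 80.6 to 131 TPM in controls and 77.0 to 116 TPM in tumors. Atoh1, the transcription factor that defines GCPs, was at 119 TPM in tumor GB344, 244 TPM in GB359 and 319 TPM in GB370 and at 0.212 TPM or less in every control. Adjacent cerebella of GB344 and GB359 held 59.4 and 50.5 TPM of Atoh1 and that of GB370 held 4.997, so these samples were not free of the progenitor marker that controls lacked. Among the controls, GB512 stood apart in proliferation genes, with 5.63 TPM of Mki67 against 0.180 to 0.343 in the other 5. Some results that rest on these libraries are also given without them, where stated.

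In the 3 tumors, Dll3, Jag1, Rbpj, Hes1 and Hey1 rose against the 6 control cerebella and Notch3 fell. Mean Dll3 rose from 2.35 ± 1.71 (SD, n = 6) to 69.9 ± 58.1 TPM (SD, n = 3), and Hey1, the most abundant of the 10 genes, from 44.3 ± 4.25 (SD, n = 6) to 170 ± 49.99 TPM (SD, n = 3). Notch1, Notch2, Dll1 and Hes5 did not pass both thresholds. The test was limma on log2(TPM + 1), a scale that understates fold changes of genes near 0 TPM. Genes that changed by 1 or more on the log2 scale with a Benjamini-Hochberg adjusted p below 0.01 were called. All 10 genes passed the expression filter of 1 TPM in 3 samples. Of the 10 genes, 5 were called higher, while 14.4% of the 16241 genes tested were called higher, and 1 was called lower, while 21.5% of all genes were. The median log2 fold change was 1.04 over the 10 genes and -0.11 over all genes. Because the 10 genes were chosen with earlier results of these data known, these counts and medians describe them and do not test the pathway. Median-of-ratios scaling and quantile normalization moved the all-gene median to -0.01 and 0.04, and higher genes made up 40.2% of calls in the unscaled data, 45.2% after the first and 47.7% after the second. In whole tissue, fewer cells of a type and less RNA per cell cannot be told apart.

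**Figure D1:**
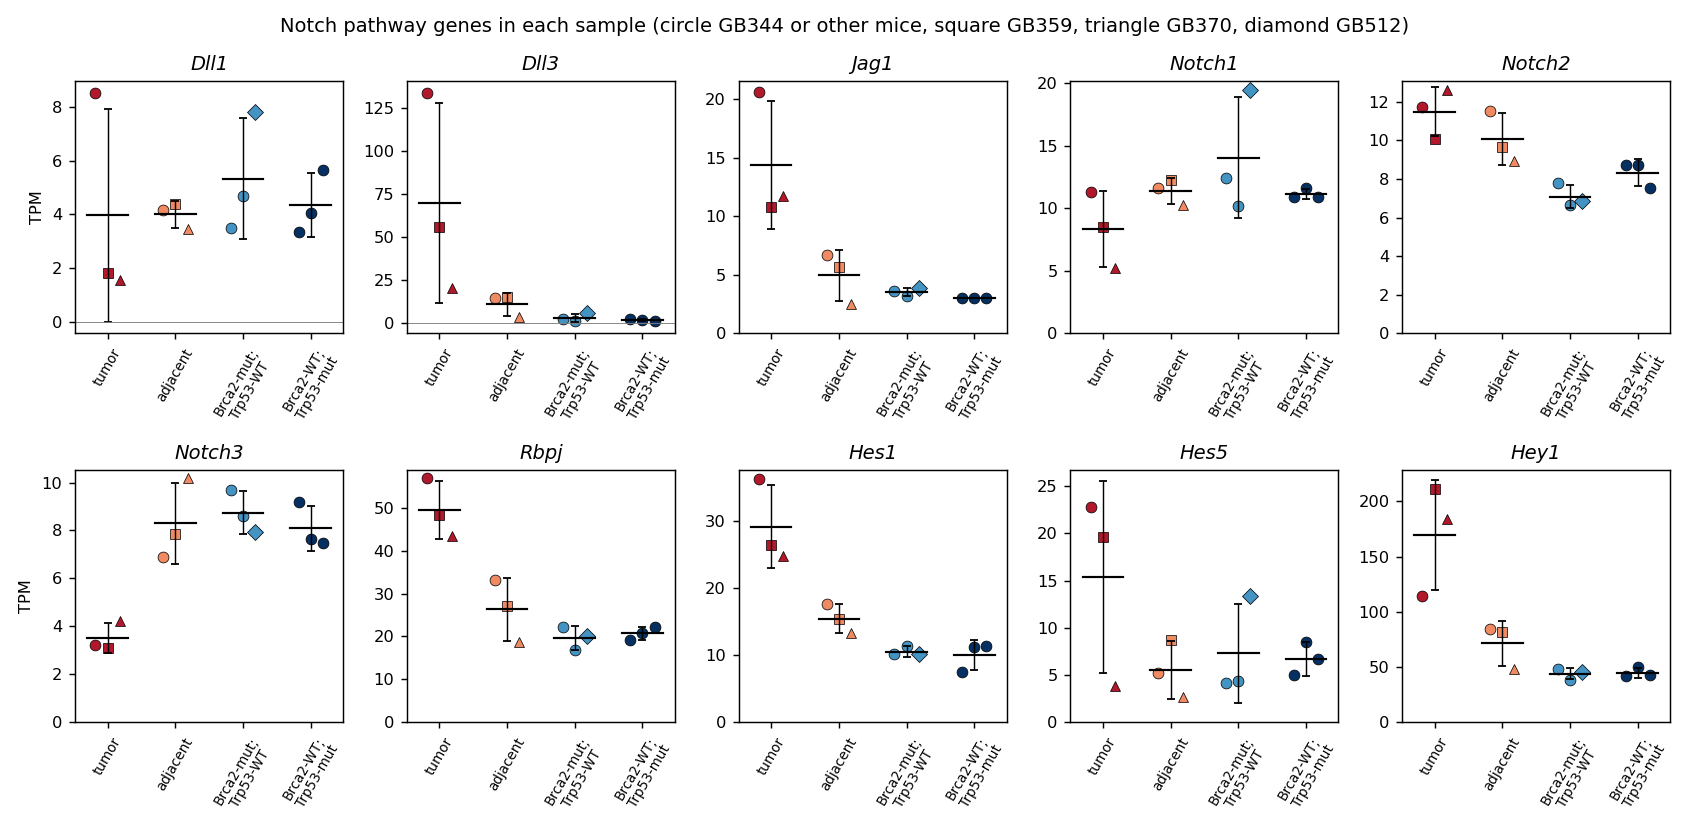
TPM of the 10 Notch pathway genes in each of the 12 samples, in 10 panels with linear axes; points are samples, horizontal lines group means and bars SD (n = 3). Dll3, Jag1, Rbpj, Hes1, Hey1 and Notch2 in all 3 tumors lie above all 6 controls, and Notch3 lies below them. Dll1, Hes5 and Dll3 vary most between tumors.

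Of the ligands, Dll3 changed most. Tumors GB344, GB359 and GB370 held 134, 55.4 and 20.4 TPM, against a lowest, median and highest of 1.09, 1.75 and 5.70 TPM in controls. The groups did not overlap, although the tumors themselves differed by 6.57 times between the highest and the lowest. Its log2 fold change was 4.15 (SE 0.53, limma adjusted p = 4.31e-05), and mean TPM was 29.7 times that of controls, or 16.1 times without tumor GB344. The highest control value was that of GB512, the control with the raised proliferation genes. How many of all genes lacked overlap was not counted, so here and below the absence of overlap only describes the values.

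Jag1, a ligand that activates Notch receptors, was at 20.6 TPM in tumor GB344, 10.8 TPM in GB359 and 11.7 TPM in GB370. Controls ranged from 3.01 to 3.88 TPM with a median of 3.14. Every tumor was above every control, and the log2 fold change was 1.78 (SE 0.19, limma adjusted p = 1.03e-05).

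Dll1, the activating Delta ligand best known from neural progenitors, split the tumors. Tumor GB344 was at 8.55 TPM, above all controls, while GB359 and GB370 were at 1.80 and 1.54 TPM, below all controls, which ranged from 3.34 to 7.84 with a median of 4.37. The fitted difference was -0.48 (SE 0.40, limma adjusted p = 0.307). Without tumor GB344 it was -1.09 and was called lower (limma adjusted p = 0.00423), so 1 tumor decided the call.

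Dll3 was the most abundant of the 3 ligand transcripts in every tumor. It made up 74.7% ± 12.3 (SD, n = 3) of their summed TPM in tumors and 20.9% ± 8.19 (SD, n = 6) in controls, and Dll1 made up 4.15% ± 1.35 (SD, n = 3) and 46.1% ± 7.39 (SD, n = 6). The share of Dll3 was 82.1% and 81.5% in tumors GB344 and GB359 and 60.6% in GB370. These shares use the same values as the fits and were not tested separately.

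**Figure D2:**
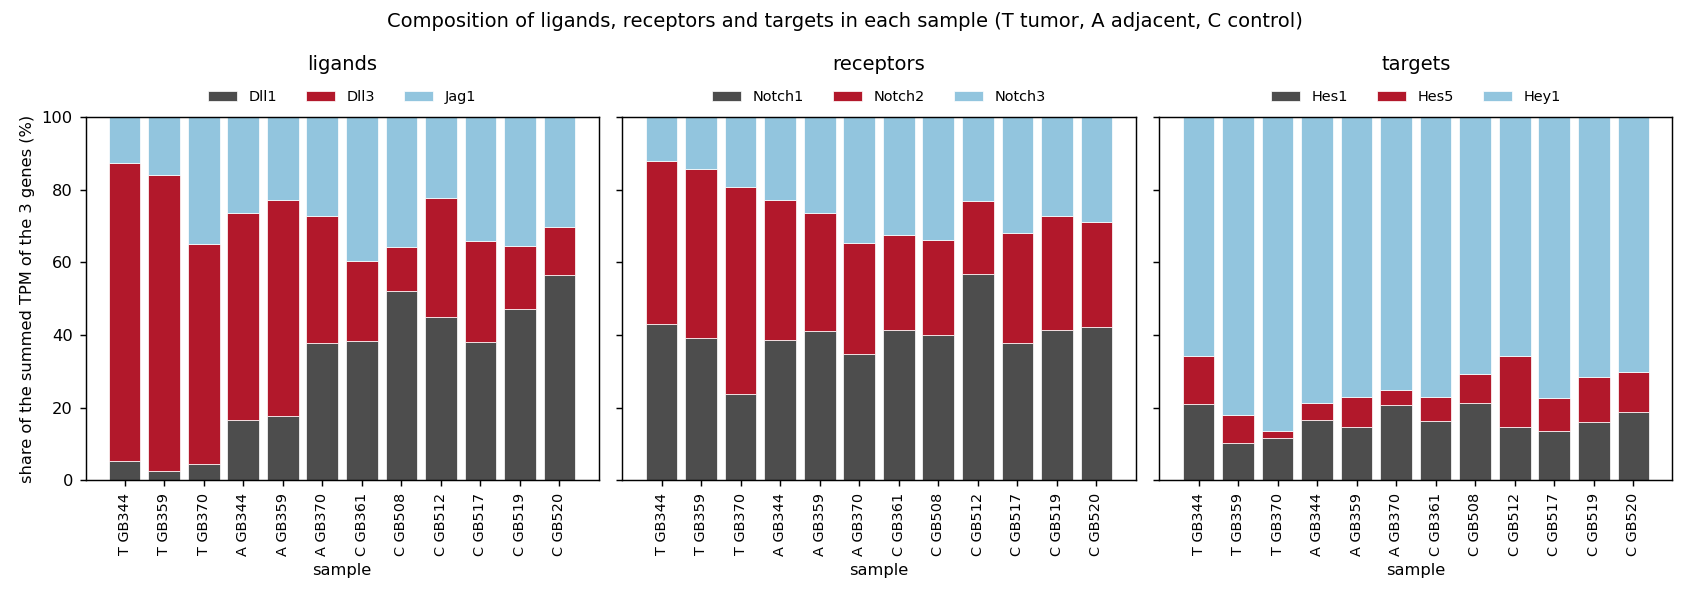
Share (%) of each gene in the summed TPM of the 3 ligands, 3 receptors and 3 targets, 1 stacked bar per sample. Dll3 is the largest ligand share in all 3 tumors, the Notch2 share of receptors is higher in tumors (49.5% on average) than in controls (27.1%), and Hey1 is the largest target share in every sample.

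Of the receptors, Notch3, in adults best known from the smooth muscle and pericytes of vessels, was at 3.21 TPM in tumor GB344, 3.10 TPM in GB359 and 4.23 TPM in GB370, and at 7.48 to 9.70 TPM, with a median of 8.26, in controls. The groups did not overlap, and the log2 fold change was -1.07 (SE 0.13, limma adjusted p = 3.18e-05). That size lies near the fold minimum: it was -0.97 after median-of-ratios scaling, -0.86 after quantile normalization and -0.9997 without tumor GB359, none of which was called. Mural cell markers, of which 1 of 9 was called higher and 3 lower, summed to 111 to 249 TPM in tumors and 177 to 203 TPM in controls, and endothelial markers, of which 2 of 9 were called lower, to 119 to 187 and 141 to 163 TPM. Their part in the Notch3 result was not tested.

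Notch2 was at 11.8, 10.1 and 12.6 TPM in tumors and at 6.65 to 8.75 TPM, with a median of 7.67, in controls. Every tumor was again above every control, with a log2 fold change of 0.52 (SE 0.12, limma adjusted p = 0.00338) that was under the fold minimum. Notch1, the receptor best known from neural progenitors, was at 11.3 TPM in tumor GB344, 8.53 TPM in GB359 and 5.21 TPM in GB370, and at 10.2 to 19.4 TPM in controls, with a median of 11.3. The groups overlapped, and the difference of -0.56 (SE 0.24) did not pass (limma adjusted p = 0.0558).

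The 3 receptors summed to 23.4 ± 2.54 TPM (SD, n = 3) in tumors, against 28.7 ± 3.17 (SD, n = 6) in controls. Notch2 was 49.5% ± 6.75 (SD, n = 3) of that sum in tumors and 27.1% ± 4.08 (SD, n = 6) in controls. Notch1 was the largest receptor share in every control, and Notch2 in every tumor.

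Rbpj, the DNA-binding partner of all Notch receptors, was at 56.9 TPM in tumor GB344, 48.2 TPM in GB359 and 43.3 TPM in GB370. Controls ranged from 16.8 to 22.3 TPM with a median of 20.4. The groups were far apart and varied little within themselves, with a log2 fold change of 1.25 (SE 0.12, limma adjusted p = 4.08e-06).

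The promoter of Rbpj is shown because its own protein recognizes the core letters TGGGAA, and the promoter of Hes5 because it is a classical RBPJ target. Of the 10 genes, 8 had windows in the RefSeq promoter table (build GRCm38.p6). The 250 bases before a transcript start are printed 5′ to 3′ on the gene strand, with TGGGAA, or TTCCCA where it lies on the other strand, in capitals. The Rbpj window is chr5:53590096-53590345 (plus strand), 1 of 2 for this gene, and the Hes5 window is chr4:154960673-154960922 (plus strand).
Rbpj: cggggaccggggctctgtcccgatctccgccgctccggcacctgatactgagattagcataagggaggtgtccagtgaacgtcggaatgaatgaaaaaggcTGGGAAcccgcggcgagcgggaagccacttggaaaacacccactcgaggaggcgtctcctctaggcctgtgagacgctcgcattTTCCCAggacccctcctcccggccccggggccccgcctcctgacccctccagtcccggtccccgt
Hes5: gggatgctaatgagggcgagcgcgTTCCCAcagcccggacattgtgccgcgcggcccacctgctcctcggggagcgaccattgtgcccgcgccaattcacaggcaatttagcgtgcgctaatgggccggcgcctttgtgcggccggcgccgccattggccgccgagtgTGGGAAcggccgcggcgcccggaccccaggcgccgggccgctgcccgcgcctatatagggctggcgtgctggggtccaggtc
The Rbpj window held TGGGAA at -149 and TTCCCA at -65, counted from the transcript start to the first letter. The other Rbpj window, chr5:53590236-53590485, overlaps it and held 1 match, the same TTCCCA, at -205. Both windows lie inside the span of the gene, which begins at chr5:53555779. In Hes5 the matches began at -226 and -82 and both extended to the longer GTGGGAA. The Hes5 window also lies inside the span of its gene, which begins at chr4:154960626. Over 32851 promoter windows of this length, searched on both strands, 21.6% held TGGGAA at least once and 2.77% at least 2 times, while GTGGGAA was found at least once in 5.42% and at least 2 times in 0.161%. The windows of Notch1, Notch2, Notch3, Dll1, Dll3 and Jag1 did not hold TGGGAA. These matches describe letters only, and no binding was measured here.

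Jag1 is printed for the other end of the pathway, with the HES-type letters CACGCG, or CGCGTG on the other strand, in capitals. Its window is chr2:137116521-137116770 (minus strand).
Jag1: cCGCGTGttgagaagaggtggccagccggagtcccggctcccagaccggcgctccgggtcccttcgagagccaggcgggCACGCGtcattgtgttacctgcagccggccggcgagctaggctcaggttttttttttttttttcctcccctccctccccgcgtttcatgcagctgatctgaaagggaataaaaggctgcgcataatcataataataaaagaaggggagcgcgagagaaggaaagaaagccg
The matches began at -249 and -171. Across all windows, 7.62% held CACGCG at least once and 1.27% at least 2 times, and Notch2 and the second Dll1 window held it 1 time each.

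Of the targets, Hey1, a repressor of the hairy-related family, was at 114 TPM in tumor GB344, 211 TPM in GB359 and 184 TPM in GB370, and at 38.1 to 49.6 TPM, with a median of 43.8, in controls. All tumors were above all controls, with a log2 fold change of 1.87 (SE 0.17, limma adjusted p = 3.48e-06). Tumor GB344, the highest for Dll3, Jag1, Rbpj and Hes1, was the lowest for Hey1.

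Hes1, a repressor that holds back neuronal differentiation, was at 36.2, 26.4 and 24.8 TPM in tumors and at 7.40 to 11.4 TPM in controls, with a median of 10.6. There was no overlap, and the log2 fold change was 1.41 (SE 0.16, limma adjusted p = 1.80e-05). Hes5, its close relative in neural progenitors, was at 22.8 and 19.6 TPM in tumors GB344 and GB359 but at 3.84 TPM in GB370, below the lowest control. Controls ranged from 4.20 to 13.3 TPM with a median of 5.81, and the difference of 0.84 (SE 0.50) did not pass (limma adjusted p = 0.156). Without tumor GB370 it was 1.57 and was called higher (limma adjusted p = 0.00378).

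Hey1 alone made up 78.2% ± 10.9 (SD, n = 3) of the summed TPM of the 3 targets in tumors and 72.1% ± 4.39 (SD, n = 6) in controls. In tumors that sum was 214 ± 42.0 TPM (SD, n = 3), and controls had 61.5 ± 6.65 (SD, n = 6). These sums and shares were not tested separately.

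Other cell types differed between the same groups. Bergmann glia and astrocytes are a known normal source of Notch targets in the cerebellum, and their 12 markers summed to 694 to 1109 TPM in tumors and 3331 to 4478 TPM in controls, with 9 called lower and 2 (Fabp7 and Sox9) called higher. Aldoc made up a large part of the control sum, at 1309 to 2146 TPM in controls and 23.5 to 111 TPM in tumors. Gfap overlapped between the groups, at 79.3 to 193 TPM in tumors and 117 to 181 TPM in controls. Of the other lists, 8 of 10 GCP markers and 2 of 7 microglia markers were called higher, and 8 of 9 mature granule, 8 of 9 Purkinje, 6 of 9 oligodendrocyte and 1 of 7 choroid plexus markers were called lower, while 2 of the 9 oligodendrocyte markers (Pdgfra and Cspg4) were called higher. Choroid plexus markers summed to 3989 to 5214 TPM in Brca2-WT;Trp53-mut controls, 20.0 to 883 in Brca2-mut;Trp53-WT controls and 26.5 to 49.4 in tumors. The part of any of these cell types in the levels of the 10 genes was not tested.

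**Figure D3:**
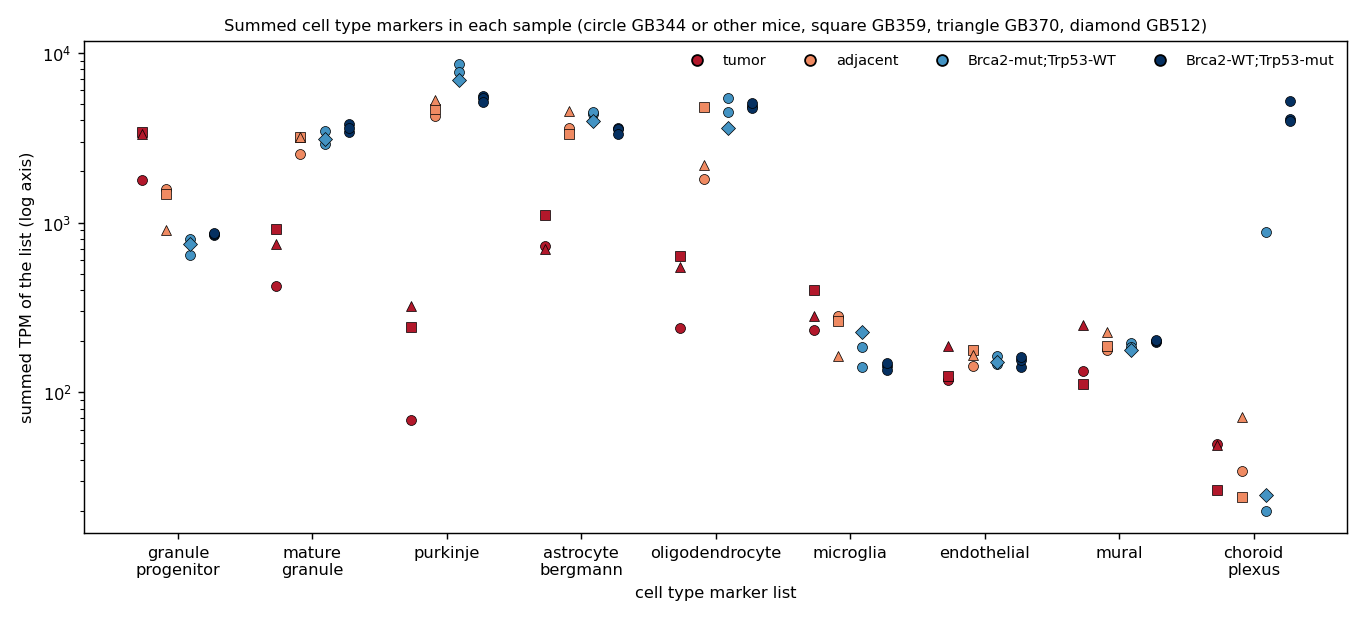
Summed TPM of 9 cell type marker lists in each of the 12 samples (log axis), colored by group. GCP markers are higher in tumors (1777 to 3404 TPM) than in controls (640 to 870 TPM), Purkinje, astrocyte and oligodendrocyte sums are lower, and endothelial and mural sums overlap between groups.

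The wider pathway was read from 63 further Notch genes in 8 roles, of which 62 were tested (Hes2 was not). Of these, 9 were called higher and 13 lower in tumors, beside the 14.4% and 21.5% of all genes, and their median log2 fold change was -0.03.

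Of 7 other ligands, 1 was called higher and 3 lower. Dner, a Notch ligand of Purkinje cells, was at 30.1 to 58.9 TPM in tumors and 409 to 631 TPM in controls, a log2 fold change of -3.43 (SE 0.21, limma adjusted p = 2.14e-07). Cntn1, a contactin of axons, fell by 2.51 and Jag2 by 1.64 on the log2 scale. Dll4, the ligand of sprouting vessels, was called higher, at 9.45, 6.25 and 5.85 TPM in tumors and 1.93 to 3.35 TPM in controls. Notch4, the remaining receptor, was not called, at 4.62 to 7.52 TPM in tumors and 3.74 to 6.87 TPM in controls.

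Of 10 genes for receptor cleavage, Ncstn, a subunit of gamma-secretase, rose by 1.11 on the log2 scale, and Aph1b and Aph1c, alternative subunits of the same enzyme, fell by 2.26 and 1.18. Among 5 genes that add sugars to Notch receptors, Mfng, a Fringe enzyme that alters the preference of receptors for ligands, was the 1 called. The tumors of GB344, GB359 and GB370 held 30.4, 20.9 and 33.3 TPM of it, while controls held 1.82 to 3.60 TPM in controls, a log2 fold change of 3.12 (SE 0.19, limma adjusted p = 1.83e-07).

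Of 6 genes for ligand endocytosis, 3 were called lower and 1 higher. The ubiquitin ligase gene Neurl1a was at 6.64 to 27.6 TPM in tumors and 82.3 to 118 TPM in controls (log2 fold change -2.85), and its relative Neurl1b was at 7.504 to 16.8 and 2.15 to 3.11 TPM (log2 fold change 1.82). Epn2 fell by 1.45 and Mib2 by 1.19. Of 9 genes for receptor turnover and feedback, Fbxw7, which marks the intracellular receptor part for degradation, fell by 1.91, and Nrarp, a feedback target gene of Notch, rose by 1.31. Nrarp overlapped between groups, with 7.42 to 18.1 TPM in tumors and a highest control of 7.99 TPM in GB512. The remaining controls held 3.30 to 4.11 TPM of Nrarp, below every tumor.

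Of 16 nuclear partners, 3 were called higher and 1 lower. Tle1, a Groucho corepressor that HES proteins recruit, was at 66.3, 86.7 and 99.3 TPM in tumors and 15.0 to 18.7 TPM in controls (log2 fold change 2.21). The acetyltransferase gene Kat2b fell by 1.64, and Hdac1 and L3mbtl3 were the others called higher, by 1.40 and 1.03.

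Among 8 tested HES and HEY relatives, 1 was called higher and 3 lower. Hes3 was at 2.03, 4.09 and 8.20 TPM in tumors and 65.8 to 107 TPM in controls, a log2 fold change of -4.06 (SE 0.30, limma adjusted p = 6.38e-07). Bhlhe40 and Bhlhe41, related repressors, fell by 1.90 and 1.46. Hes6, known for opposing Hes1, was at 170 TPM in tumor GB344, 65.1 TPM in GB359, 63.0 TPM in GB370 and 25.2 to 39.5 TPM in controls (log2 fold change 1.46). Within the family, Hes1, Hey1 and Hes6 thus rose while Hes3, Bhlhe40 and Bhlhe41 fell.

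**Figure D4:**
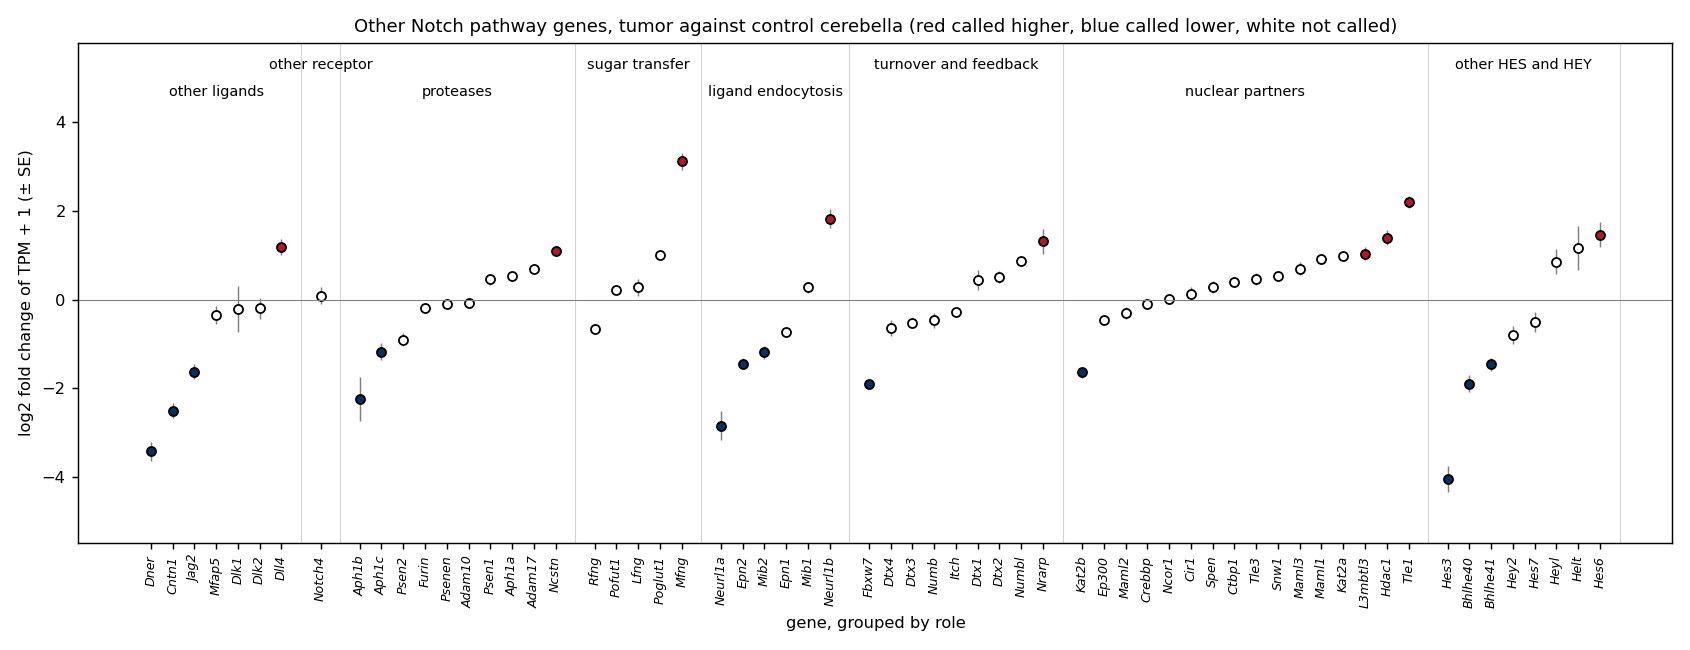
Log2 fold change of TPM + 1 (points, bars SE) of the 62 further tested Notch genes, tumor (n = 3) against control cerebella (n = 6), grouped by role; red was called higher, blue lower, white not called. Mfng (3.12) and Tle1 (2.21) lie highest, Hes3 (-4.06) and Dner (-3.43) lowest.

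Tumor was next set against the cerebellum beside it in the same 3 mice. Notch3 was called lower and none of the 10 genes was called higher by limma without a mouse term, while 4.76% of the 15845 genes tested were called higher and 18% lower. At an unadjusted p under 0.05, Dll3, Jag1, Hes1, Hey1 and Rbpj were higher in tumor, 5 of 10, while 21.6% of all genes were. Among all calls in this comparison, higher genes made up 20.9%, and 34.4% after median-of-ratios scaling, 42.2% after quantile normalization and 29.1% with all 4 groups in the fit. The comparison with controls uses the same tumors, so both are given side by side and neither supports the other.

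Dll3 in adjacent cerebellum was at 14.5, 14.8 and 3.20 TPM in GB344, GB359 and GB370, and each tumor was above its own adjacent sample by 9.24, 3.74 and 6.37 times. The log2 fold change was 2.43, with an SE of 0.77 and a limma adjusted p of 0.0352 without pairing and an SE of 0.27 and an adjusted p of 0.00252 with the mouse as a block. Jag1 was at 6.67, 5.69 and 2.50 TPM beside the tumors, and its tumors were 3.09, 1.89 and 4.69 times higher. Its log2 fold change of 1.39 had an adjusted p of 0.0195 without and 0.00979 with the block (limma). These were the 2 genes of the 10 called higher with the block, which called 4.42% of all genes higher. With all 4 groups in the fit, which called 8.07% higher, Dll3, Jag1 and Hey1 were called (limma adjusted p = 0.00929, 0.00160 and 0.00111).

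Hes1, Hey1 and Rbpj were also higher in tumor in 3 of 3 mice. Adjacent Hes1 was at 17.6, 15.4 and 13.3 TPM in GB344, GB359 and GB370, adjacent Hey1 at 84.2, 81.5 and 48.2, and adjacent Rbpj at 33.3, 27.03 and 18.6. The log2 fold changes were 0.86, 1.23 and 0.92, with limma adjusted p of 0.0106, 0.0136 and 0.0150. All 3 were called after median-of-ratios scaling (1.04, 1.42 and 1.09) and after quantile normalization (1.13, 1.40 and 1.14). Of all 15845 genes, 1296 and 1603 were called higher after these scalings, against 755 without scaling. Tumor over adjacent ratios of Hey1 ran from 1.35 in GB344 to 3.81 in GB370, and those of Hes1 from 1.71 to 2.06.

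Notch3 was at 6.89, 7.84 and 10.2 TPM in adjacent cerebellum of GB344, GB359 and GB370, and tumors were at 0.466, 0.395 and 0.416 of that. Its log2 fold change was -1.04 (SE 0.21, limma adjusted p = 0.00675). The call was lost, with values from -1.15 to -0.90, when any 1 of the 6 samples was left out, with -0.88 and -0.64 under the scalings named above, and without an expression filter (adjusted p = 0.0139). Notch1 (-0.45), Notch2 (0.18), Dll1 (-0.29) and Hes5 (1.15) did not pass, with limma adjusted p of 0.200, 0.431, 0.652 and 0.186. Hes5 was higher in tumor in 3 of 3 mice, by 4.40, 2.25 and 1.46 times, and Dll1 was 2.05 times higher in GB344 and lower in both other mice.

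Against the GB370 adjacent sample alone, which held the least Atoh1, the log2 fold changes were 3.70 for Dll3, 2.08 for Jag1, 1.06 for Hes1, 1.75 for Hey1, 1.36 for Rbpj and -1.32 for Notch3. None was called (limma adjusted p from 0.0186 to 0.0599). This setting was chosen after seeing the data and assumes that the lone sample varies like the tumors. In the main fit of tumor against adjacent cerebellum, 60 further Notch genes were tested. Of these, 2 (Mfng and Tle1) were called higher and 12 lower, beside 4.76% and 18% of all genes.

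**Figure D5:**
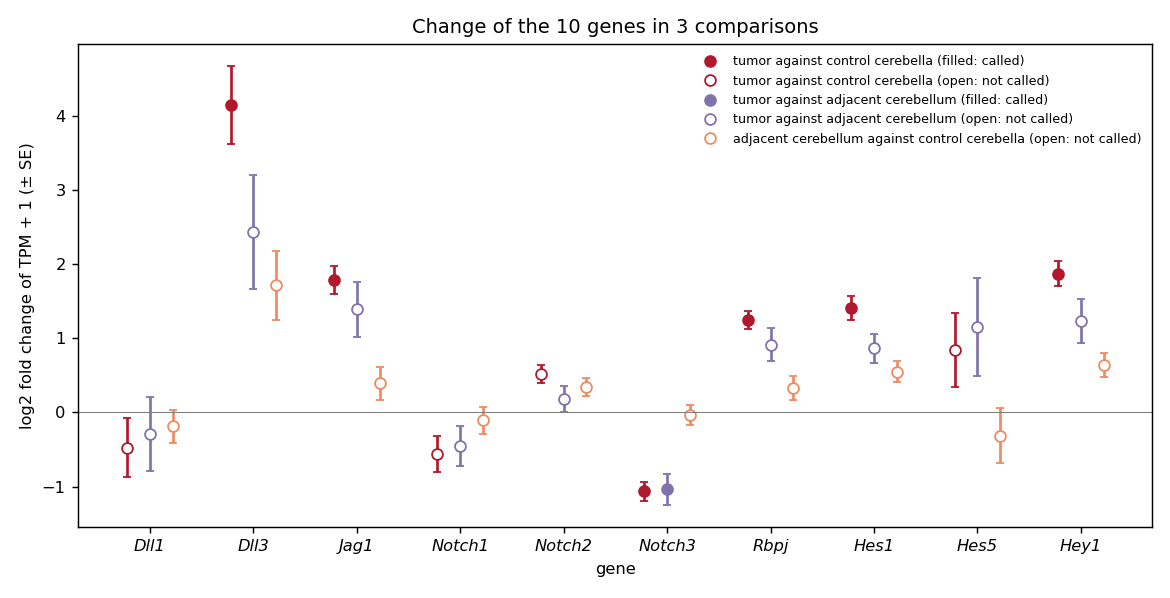
Log2 fold change of TPM + 1 (points, bars SE) of the 10 genes in 3 comparisons, filled where called; the comparisons share samples. Dll3 is highest in all 3 (4.15, 2.43 and 1.71), and Notch3 is near -1 against both controls and adjacent cerebellum and near 0 (-0.03) between those.

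Adjacent cerebellum was then compared with control cerebella. None of the 10 genes was called in either direction by limma, while 0.224% of the 16091 genes tested were called higher and 0.0124% lower. Dll3, Hes1, Hey1 and Notch2 were higher at an unadjusted p under 0.05, 4 of 10, while 22.1% of all genes were. Higher genes made up 94.7% of calls and 69.5% after quantile normalization.

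Dll3 had the largest difference, 1.71 (SE 0.47, limma adjusted p = 0.0376). The samples of GB344 and GB359, at 14.5 and 14.8 TPM, were above all controls, and that of GB370, at 3.20 TPM, was within their range. Without GB370 the difference was 2.35 and was called (adjusted p = 0.00308), and without the other two, a setting chosen after seeing the data, it was 0.45 (SE 0.54, limma adjusted p = 0.689). That last fit has 1 adjacent sample and takes its spread from the controls alone, so its p does not show that a difference is absent. The 2 samples with high Dll3 were those with high Atoh1 and Mki67, the latter at 58.4 and 33.3 TPM against 2.72 in GB370, and the part of progenitor cells in this difference was not tested.

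Hey1 differed by 0.64 (limma adjusted p = 0.0312) and Hes1 by 0.55 (adjusted p = 0.0333). Notch2 differed by 0.34 (adjusted p = 0.0818). Every adjacent value of Hes1 and of Notch2 (8.95 to 11.6 TPM) was above every control, while Hey1 in GB370 (48.2 TPM) was within the controls. Jag1 and Rbpj differed by 0.39 and 0.33 and in GB370 alone by -0.29 and -0.11. Notch3 differed by -0.03 (SE 0.13).

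Between the 2 control genotypes, none of the 10 genes was called by limma and none had an unadjusted p under 0.05, which 20.1% of all genes had, with Brca2-mut;Trp53-WT minus Brca2-WT;Trp53-mut differences from -0.21 for Notch2 to 0.35 for Dll3, while 0.0128% of the 15575 genes tested were called higher and 0.0449% lower. With 3 mice per genotype, small differences could not be told from the spread between mice. Hey1 was at 43.8 ± 5.15 (SD, n = 3) and 44.7 ± 4.25 TPM (SD, n = 3), and Rbpj at 19.7 ± 2.79 (SD, n = 3) and 20.7 ± 1.48 TPM (SD, n = 3). Jag1 did not overlap between the genotypes, at 3.22 to 3.88 TPM and 3.01 to 3.06 TPM, with a difference of 0.18 (limma adjusted p = 0.452). Dll3 without GB512 differed by -0.12 in place of 0.35.

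Mean TPM fell from tumor to adjacent to control for Dll3 (69.9, 10.8 and 2.35), Jag1 (14.4, 4.95 and 3.30), Hes1 (29.1, 15.4 and 10.3), Hey1 (170, 71.3 and 44.3), Rbpj (49.5, 26.3 and 20.2) and Notch2 (11.5, 10.1 and 7.72). In the main fits, none of these genes was called between tumor and adjacent tissue or between adjacent and control tissue. Between tumor and adjacent tissue their limma adjusted p ran from 0.0106 for Hes1 to 0.431 for Notch2. For Jag1 and Rbpj the adjacent and control levels did not differ beyond their spread. Notch3 was lowest in tumor (3.51) and did not differ beyond its spread between adjacent and control tissue (8.30 and 8.42). For Notch1, Dll1 and Hes5 no comparison of groups passed the test.

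Genes with the most similar pattern were found by the root mean square difference of centered log2(TPM + 1) over the 12 samples, among 16012 genes. Nearest to Dll3 were the mitotic genes Plk1 (0.49) and Depdc1a (0.51), with Plk1 at 59.8, 16.6 and 3.19 TPM on average in tumor, adjacent and control tissue, and both were farther from it than the nearest genes of any of the other members were from theirs. Rbpj was closest to Sav1 and Srsf7 (0.08 each), Hey1 to Cd9 and Zeb1 (0.13 and 0.14), Hes1 to Apool and Ncl (0.13 and 0.15) and Jag1 to Rpl11 and Ms4a6d (0.12 each). Notch1 was closest to Dtx4 (0.19), itself a Notch pathway gene, and to Car13 (0.19). Notch2 lay nearest to Ercc1 and Gtf3c2 (0.08 and 0.09) and Notch3 to Pja1 and Rab4b (0.11 each). Dll1 was nearest to Inppl1 and Trim34a (0.29 each) and Hes5 to Spint1 and Tgtp2 (0.46 each). Such nearness describes these 12 samples, which share the group differences.

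In the mm10 genome build (GRCm38.p6 coordinates), the 10 protein-coding genes lie on 7 chromosomes. Jag1 (Entrez Gene 16449) spans chr2:137081451-137116520 and Notch1 chr2:26457902-26503822. Hey1 spans chr3:8663359-8667038 and Notch2 chr3:98013538-98150367. Dll1 spans chr17:15367354-15376932 and Notch3 chr17:32120820-32166896. Dll3 (Entrez Gene 13389) lies at chr7:28293555-28301785, Hes1 at chr16:30065357-30067796, Hes5 at chr4:154960626-154962372 and Rbpj at chr5:53555779-53657445.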

How the data were processed

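Poly(A) RNA of 12 mouse samples was sequenced, and per the labels and methods the authors quantified transcripts with Salmon 0.8.1 on mm10 and summed them to genes. The authors deposited TPM of 24091 genes, with 1 column per sample (0 columns unused). Read depth cannot be had from TPM, so no counting interval is given and precision rests on the spread between mice. The counts the authors tested were not used here.

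Tests were made on log2(TPM + 1) with limma 3.58.1 in R 4.3.3, its variance prior following the mean level. A gene entered a comparison when 3 or more of its samples reached 1 TPM, p-values were adjusted by Benjamini-Hochberg over all genes entered, and the study's thresholds were kept (adjusted p below 0.01, log2 fold change of 1 or more in size). Groups outside a comparison were left out of its fit. The model was tested on simulated data in which 200 genes were given a log2 change of 2 in size. These were drawn from genes with a mean log2(TPM + 1) above 3, and the noise was normal and independent between genes. Genes at lower levels, or data in which many more genes change, were not simulated. The model recovered 96.5% of the changed genes in tumor against control and 71% in tumor against adjacent cerebellum. In adjacent against control cerebella 97.5% were recovered. False calls numbered 1, 0 and 0 in the same order. Python 3.11.15 with pandas 2.3.3 was used otherwise.

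Tumor and adjacent samples come from the same mice by the mouse numbers in the titles, and their deviations from the group means correlated by 0.249, 0.176 and 0.152 over 15845 genes. The main fit had no mouse term, and the fit with the mouse as a replicate block was the alternative.

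The 10 genes, the pathway roles and the marker lists were chosen with earlier results of these data known. Of each role, the 3 largest called changes were named with values, and L3mbtl3, Mib2, Dll4, Notch4 and Bhlhe41 were added after their values were seen, as was every marker named. The lists leave out 1 gene that is not reported here. For each of the 10 genes the 2 nearest genes with a mean of at least 1 TPM were named. Alternatives were other pseudocounts (0.1 and 0.01), other filters (none, or 5 TPM), 2 scalings, no variance trend, a fit of all 4 groups, a single control genotype, a looser threshold and each sample left out.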

Additional observations from a re-analysis of the deposited data

Results flagged for a closer look

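In all, 3 values of the 10 genes stood apart from the other samples of the 6 control cerebella by the gap to the nearest sample over the range (Dixon's criterion, critical value 0.625). Notch1 was at 19.4 TPM in Brca2-mut;Trp53-WT mouse GB512, with the next control at 12.4 TPM. Dll3 was at 5.70 TPM in the same mouse. Hes1 was at 7.40 TPM in Brca2-WT;Trp53-mut mouse GB517, the lowest of the 6. Chance flags about 1 in 20 groups, and 10 genes were examined at both ends. Without GB512, the tumor against control calls of the 10 genes numbered 5 higher and 1 lower, as with it.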

How the results depend on the processing

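Against controls, the calls of Dll3, Jag1, Hes1, Hey1 and Rbpj held under every alternative run, and 185 recomputed values of the 10 genes kept their side of the thresholds, while 3 (Notch3) lost and 2 (Dll1 and Hes5) gained a call. TPM does not give depth, so what depth limits could not be computed, and 3 mice per group limit every comparison. The cause of the changes below was not tested unless the alternative itself leaves samples out or loosens the threshold.

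An adjusted p under 0.05 with no fold minimum called 5165 genes higher and 6408 lower in tumors against controls, 2870 and 5110 against adjacent cerebellum (5 of the 10 genes higher), 1627 and 897 in adjacent against control cerebella (3 of the 10 higher), and 6 and 65 between control genotypes. In tumors against controls, 0 of the 10 genes were called lower after either scaling, and between 0 (without tumor GB359) and 2 (without tumor GB344) when a sample was left out.

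In tumors against adjacent cerebellum, genes called higher numbered 465 without a filter, 1296 after median-of-ratios scaling, 1603 after quantile normalization, 1278 with all 4 groups in the fit, and 189 (without tumor GB370) to 913 (without adjacent GB344) with a sample left out. Without adjacent GB344 and GB359, 500 were called higher and 598 lower. Of the 10 genes, 3 were called higher after median-of-ratios scaling, 4 after quantile normalization, 3 with all 4 groups, 2 with the mouse as a replicate block and 0 to 1 with a sample left out. Notch3 was the 1 gene called lower, and 0 were without a filter, after both scalings, with any sample left out and without adjacent GB344 and GB359. The replicate block changed no other call of the 10 genes than those of Dll3 and Jag1. Dll1 turned to 0.0965 after quantile normalization and ran from -0.90 to 0.0522 with a sample left out.

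In adjacent against control cerebella, 36 genes were called higher and 2 lower. Called higher were 4 without a filter, 10 without a trend, 2 against Brca2-mut;Trp53-WT alone, 7 against Brca2-WT;Trp53-mut alone, 5 without adjacent GB344 and GB359, and 0 (without control GB520) to 564 (without adjacent GB370) with a sample left out. Called lower were 5 with a pseudocount of 0.01, 0 without a filter, 7 and 18 after the scalings, 0 without a trend, 0 with all 4 groups, 22 against Brca2-WT;Trp53-mut alone, 10 without adjacent GB344 and GB359, and 0 to 29 with a sample left out (29 without adjacent GB359). Of the 10 genes, 0 to 1 were called higher with a sample left out, the 1 being Dll3 without adjacent GB370. Against Brca2-WT;Trp53-mut alone, Notch1 and Notch3 turned to 0.0221 and 0.0210. Without adjacent GB344 and GB359, Notch3 turned to 0.25, Jag1 to -0.29 and Rbpj to -0.11. With a sample left out, Notch1 ran from -0.16 to 0.0167, Notch3 from -0.17 to 0.0825 and Hes5 from -0.66 to 0.0550.

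Between control genotypes, 2 genes were called higher and 7 lower. Called lower were 0 with a pseudocount of 0.01, 1 without a filter, 1 with a minimum of 5 TPM, 2 and 1 after median-of-ratios scaling and quantile normalization, 1 without a trend, 19 with all 4 groups and 2 to 27 with a sample left out (27 without GB361), and 2 to 5 were then called higher. Hes5, Hey1 and Rbpj turned to 0.0343, 0.0538 and 0.00642 after median-of-ratios scaling and to 0.0834, 0.0498 and 0.0294 after quantile normalization. With a sample left out, Dll1 ran from -0.0617 to 0.43, Dll3 from -0.12 to 0.72, Hes1 from -0.0911 to 0.19, Hes5 from -0.52 to 0.21, Hey1 from -0.0982 to 0.0658 and Rbpj from -0.16 to 0.0324, none of them called.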
